A study of Mus musculus with 18 samples.

Results

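The potassium channel genes are 96 of the 51290 genes in the deposited count table. They were chosen by name, as every symbol that begins with Kcn, goes on with 1 or more letters and a digit, and does not end in -ps, os or Rik. The rule takes 20 symbol families and uses no measured value. Among the 96 are 93 protein-coding genes and 3 non-coding transcripts (Kcnq1ot1, Kcnmb4os1 and Kcnmb4os2), which carry channel names but encode no channel.

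Bulk poly(A) RNA was sequenced from 18 mouse samples, 6 malignant peripheral nerve sheath tumours (MPNST), 6 plexiform neurofibromas, which are benign nerve tumours, and 6 normal nerves, to compare the malignant tumours with the benign ones. The MPNST were Nf1 flox/flox, Arf flox/flox and PostnCre+. The neurofibromas were trigeminal nerves that were Nf1 flox/flox and PostnCre+, and the normal nerves were trigeminal nerves that were Nf1 flox/flox and PostnCre-. Floxed Nf1 was therefore shared by all groups, floxed Arf was in MPNST only, and the Cre was driven by the Postn promoter. The labels give no body site for the MPNST and no ages, and they do not say which cells recombined. The labels describe all 6 neurofibromas and all 6 nerves as samples of another series, and none of the MPNST, so library origin follows the same line. MPNST and trigeminal samples thus differ in genotype, tumour type, origin and possibly site, and these cannot be told apart. Neurofibroma against nerve does not have the difference in origin.

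Potassium channels let potassium leave or enter a cell through a pore and so set the resting potential and the shape of action potentials. Voltage-gated subunits (Kcna to Kcnd, Kcnh and Kcnq) open on depolarisation, Kcng, Kcnf, Kcns and Kcnv subunits form no working pore alone and modify Kcnb partners, inward rectifiers (Kcnj) and 2-pore-domain subunits (Kcnk) act near rest, and Kcnma, Kcnn and Kcnt subunits open with intracellular calcium or sodium. In myelinated nerve, Kcna1 and Kcna2 subunits sit in the axon beside the nodes of Ranvier and Kcnq subunits in the nodes, while glia and vessel cells carry mainly inward rectifiers.

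Promoters of 4 genes are shown because their transcripts cover the patterns reported here. Kcnn4 was called higher in all 3 comparisons, Kcnj3 was called lower in all 3, and Kcna3 and Kcna2 are next to each other in the genome and were called in opposite directions between MPNST and neurofibroma. The sequences come from RefSeq on build GRCm38.p6 and run 5′ to 3′ from 250 bases before to 50 bases after the annotated start, at chr7:24370013-24370312 (plus strand) for Kcnn4, chr2:55435720-55436019 (plus strand) for Kcnj3, chr3:107035912-107036211 (plus strand) for Kcna3 and chr3:107101317-107101616 (plus strand) for Kcna2. Capitals mark the GC box GGGCGG or its reverse complement.
Kcnn4: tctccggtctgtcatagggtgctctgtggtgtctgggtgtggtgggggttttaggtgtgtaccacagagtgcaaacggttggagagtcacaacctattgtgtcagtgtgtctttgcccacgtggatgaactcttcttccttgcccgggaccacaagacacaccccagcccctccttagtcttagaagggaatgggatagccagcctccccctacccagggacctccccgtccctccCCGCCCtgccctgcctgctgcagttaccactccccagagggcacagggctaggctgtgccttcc
Kcnj3: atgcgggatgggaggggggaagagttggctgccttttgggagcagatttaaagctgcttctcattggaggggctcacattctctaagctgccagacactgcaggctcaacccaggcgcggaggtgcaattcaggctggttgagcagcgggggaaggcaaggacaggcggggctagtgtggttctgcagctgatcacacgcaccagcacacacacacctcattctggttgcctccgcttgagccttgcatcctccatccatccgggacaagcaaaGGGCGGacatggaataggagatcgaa
Kcna3: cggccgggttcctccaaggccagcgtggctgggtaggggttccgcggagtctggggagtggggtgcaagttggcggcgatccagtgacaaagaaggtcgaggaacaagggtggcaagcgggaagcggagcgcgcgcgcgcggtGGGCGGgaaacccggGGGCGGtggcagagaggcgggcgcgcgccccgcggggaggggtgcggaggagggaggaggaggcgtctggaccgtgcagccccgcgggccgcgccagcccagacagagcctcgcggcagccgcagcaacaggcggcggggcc
Kcna2: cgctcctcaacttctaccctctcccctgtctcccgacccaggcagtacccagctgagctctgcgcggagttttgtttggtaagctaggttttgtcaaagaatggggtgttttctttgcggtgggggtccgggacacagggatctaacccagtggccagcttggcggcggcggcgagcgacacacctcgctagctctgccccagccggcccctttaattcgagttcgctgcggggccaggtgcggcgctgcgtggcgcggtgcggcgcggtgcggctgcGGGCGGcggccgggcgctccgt
The search covered 3 motifs on both strands, the GC box, the TATA box TATAAA and the AP-1 motif TGANTCA. RefSeq had 95 promoters for 70 of the 96 genes. The GC box was in 48.4% of these and in 35.7% of all 32851 promoters of the table, TATAAA in 5.26% and 13.6%, and TGANTCA in 4.21% and 7.81%. The 4 printed windows held the GC box and neither of the other two motifs. These shares describe letters in a window only.

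Estimated counts per library summed to 13886399 to 23652959 in MPNST, 15307987 to 20056513 in neurofibroma and 14303986 to 20335697 in nerve. Several libraries held transcripts of other tissues. The salivary gland markers summed to 240746 CPM, the counts scaled to equal library totals, in MPNST library 2, and skeletal muscle markers summed to 46868 CPM in MPNST library 3. MPNST library 6 held 3486 CPM of sympathoadrenal markers, with all 6 of them at 1 CPM or more, while none reached 1 CPM in the other 5 MPNST. The same library held 2643 CPM of pancreatic acinar markers, with all 5 of them at 1 CPM or more. These summed to 2.37 to 29.5 CPM in the other MPNST. Neurofibroma library 1 held 1491 CPM of skeletal muscle markers and 598 CPM of oligodendrocyte and astrocyte markers. Nerve library 6 held 1854 CPM of the latter. Calls reported for single channel genes that were lost without these libraries are given with and without them. MPNST library 1, which was kept in those fits, held 733 CPM of B and plasma cell markers, against 1.41 to 73.0 CPM in the other MPNST. Nerve library 3, also kept, held 384 CPM of skeletal muscle markers.

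Potassium channel transcripts summed to less in MPNST than in trigeminal neurofibroma or nerve. The summed level of the 96 genes was 990 ± 747 CPM in MPNST, 4376 ± 322 CPM in neurofibroma and 5322 ± 653 CPM in nerve (SD, n = 6 each). The lowest, median and highest library stood at 385, 759 and 2422 CPM in MPNST, 4064, 4271 and 4859 CPM in neurofibroma and 4118, 5411 and 5910 CPM in nerve. Every MPNST library thus stood below every trigeminal library, and neurofibroma and nerve overlapped. The highest MPNST value was that of library 6, and the next was 1115 CPM in library 1. Salivary gland markers took 240746 CPM of library 2, which lowers the CPM of its other genes. With library totals scaled by TMM, as for the tests below, library 6 stood at 2190 CPM. Library 2 then stood at 1231 CPM, against 500 CPM unscaled, and library 1 at 991 CPM. Between 25 and 62 of the genes reached 1 CPM in an MPNST library, against 74 to 79 in a neurofibroma and 74 to 79 in a nerve library. Kcnj1 had 0 counts in all 18 libraries.

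The neuron markers also summed to less in every MPNST than in every trigeminal library. The 12 sensory neuron markers summed to 4.48 to 86.6 CPM in MPNST libraries 1 to 5 and to 5066 CPM in MPNST library 6, against 10186 to 12927 CPM in neurofibroma and 8863 to 15923 CPM in nerve. Among MPNST libraries 1 to 5 their order differed from that of the channel sums. Library 4 held 86.6 CPM of neuron markers and 385 CPM of channel genes, and library 1 held 53.1 and 1115 CPM. Between 0 and 10 of the 12 reached 1 CPM in an MPNST library, and all 12 did in each trigeminal library. The sensory sodium channel gene Scn10a was at 0.0720 to 1.14 CPM in the 6 MPNST. The 10 Schwann cell markers summed to 85.6 to 1879 CPM in MPNST, 10754 to 19161 CPM in neurofibroma and 4545 to 12987 CPM in nerve. The part of neuron and Schwann cell content in the channel differences was not tested, and in bulk tissue fewer cells of a type and less RNA per cell cannot be told apart.

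**Figure D1:**
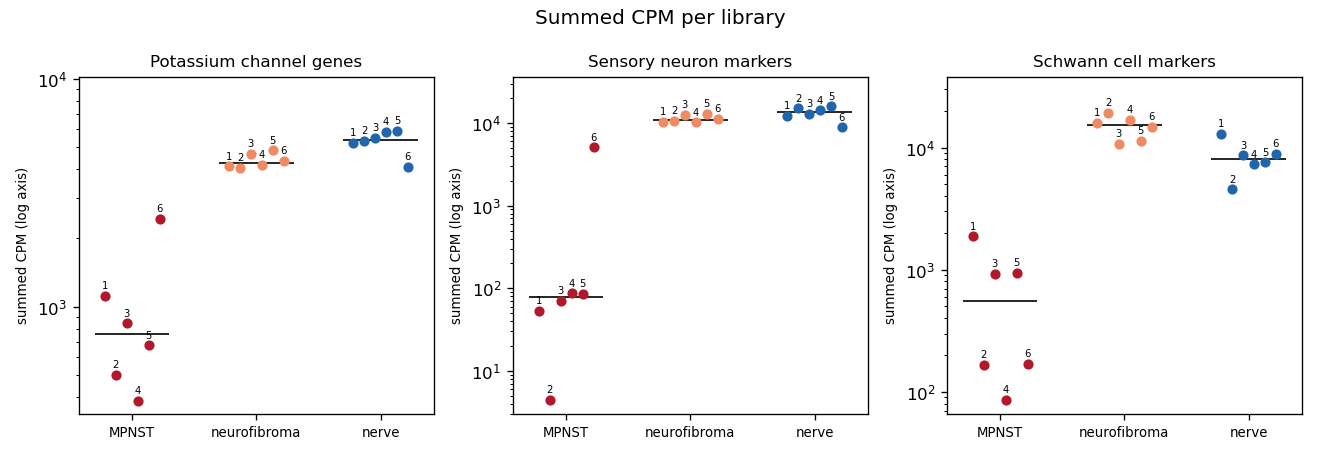
Summed CPM per library (log axis) of the 96 potassium channel genes, 12 sensory neuron markers and 10 Schwann cell markers; each point is 1 library with its number, and lines are medians of 6. All MPNST points lie below all neurofibroma and nerve points in each panel, and MPNST 6 stands out at 2422 CPM for channel genes and 5066 CPM for neuron markers.

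Of the 96 genes, 83 had enough counts to be tested in at least 1 comparison, 81 in each, and 13 in none. A gene could pass this filter through the group where it is high, so the counts that follow describe the tested genes and not the whole family. In MPNST against neurofibroma, edgeR's quasi-likelihood test called 6 of the 81 genes higher and 41 lower at a Benjamini-Hochberg adjusted p below 0.05, while 25.3% of all 16537 genes tested were called higher and 16.8% lower. The median log2 change was -2.07 over the 81 genes and 0.22 over all genes tested. No tested channel gene was higher in every MPNST than in every neurofibroma library (2.26% of all genes were), and 41 were lower in every one (16.2% of all genes).

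In MPNST against nerve, which uses the same 6 MPNST libraries, 4 of 81 genes were called higher and 39 lower, with 27.6% and 18.4% of all 16384 genes called in these directions. The median log2 change was -2.61 over the 81 genes and 0.22 over all genes tested. None was higher in every MPNST than in every nerve library and 40 were lower in every one, against 2.88% and 15.5% of all genes. In neurofibroma against nerve, 5 of 81 genes were called higher and 13 lower, with 7.94% and 6.00% of all 16464 genes called higher and lower. There the median log2 change was -0.38 over the 81 genes and -0.02 over all genes tested. In this comparison 1 gene was higher in every neurofibroma than in every nerve library and 4 were lower in every one, against 3.91% and 2.14% of all genes. The share called higher was near or below that of all genes in each comparison, and the share called lower was above it in each.

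**Figure D2:**
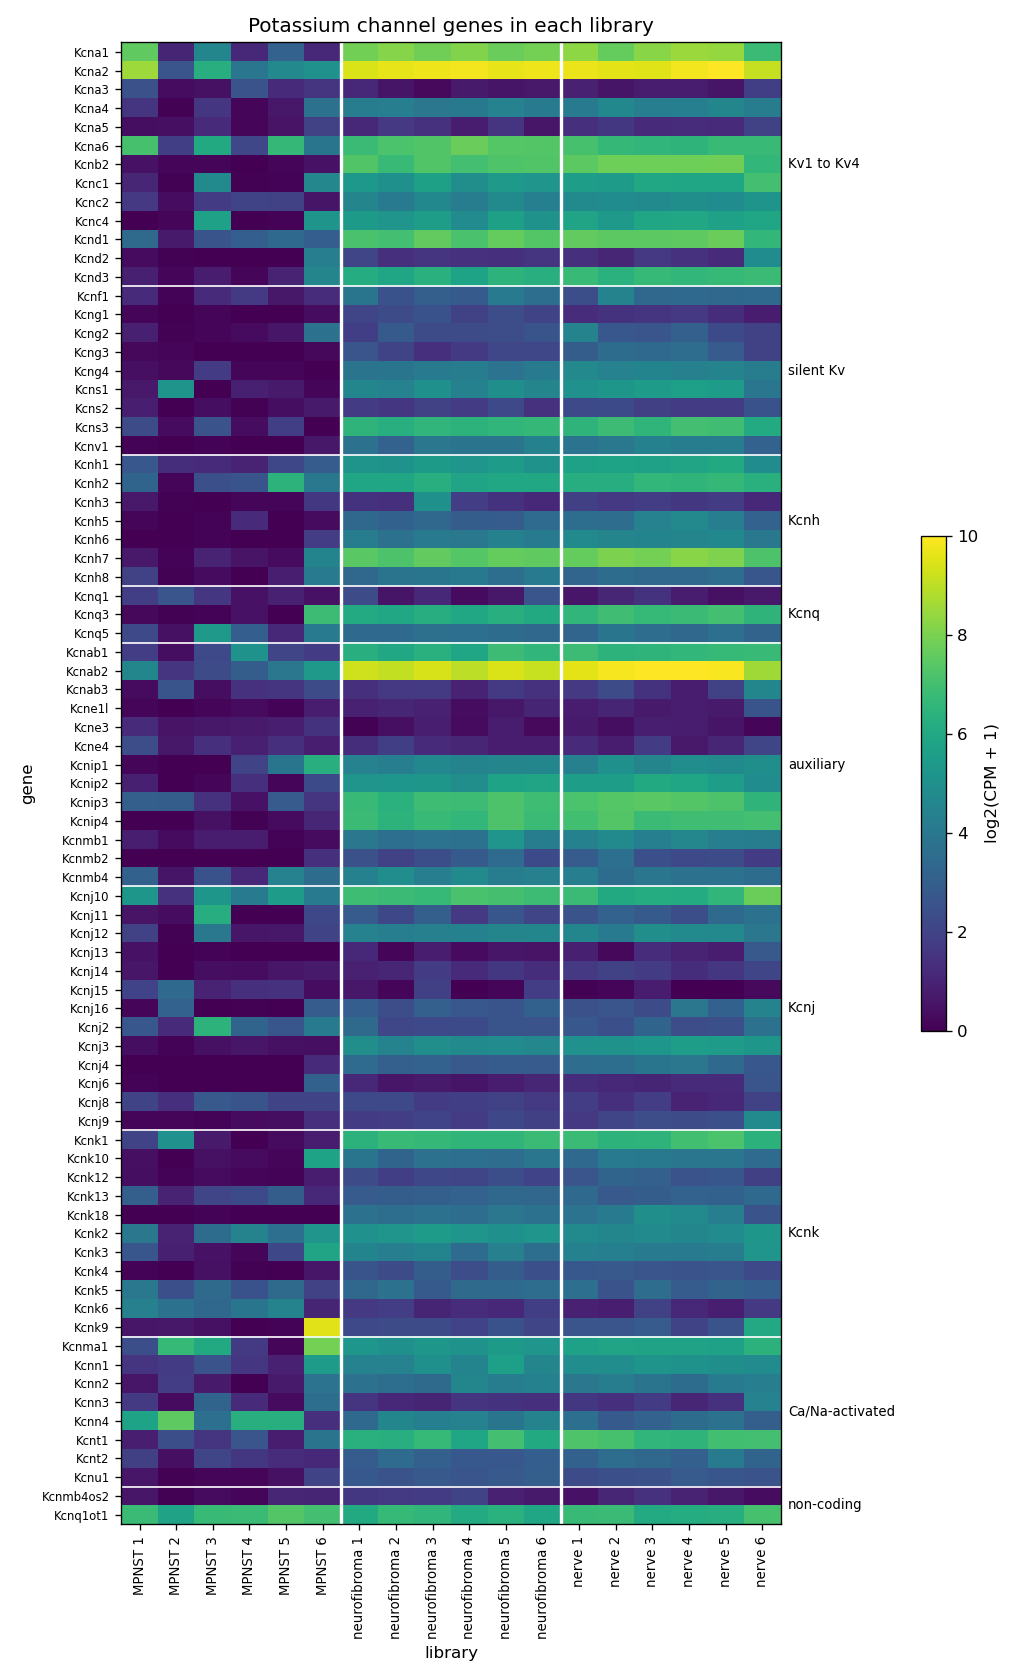
Level of 79 of the 83 tested genes as log2(CPM + 1) (colour) in each of the 18 libraries (columns), by channel class (right), with MPNST, neurofibroma and nerve separated by white lines. MPNST columns are dark for most genes, and single bright cells mark genes high in 1 MPNST library, such as Kcnk9 and Kcnq3 in MPNST 6.

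Per kilobase of transcript, the order of the genes differed between the groups. By the median library, Kcnn4 was highest in MPNST at 34.1 CPM per kb, followed by Kcnma1 at 9.59, Kcna6 at 8.54, Kcnk2 at 8.21 and Kcna2 at 6.54 CPM per kb. The Kcnma1 median lies between 3 high libraries (2, 3 and 6) and 3 low ones. In neurofibroma Kcna2 led at 188 CPM per kb, before Kcnab2 at 168, Kcna1 at 66.2, Kcnh7 at 58.3 and Kcnk1 at 54.1 CPM per kb. In nerve Kcnab2 led at 269 CPM per kb, before Kcna2 at 185, Kcna1 at 86.0 and Kcnh7 at 81.0 CPM per kb. Lengths were available for the 93 coding genes and are medians over protein-coding transcripts of the basic GENCODE M21 annotation, so small differences in these levels are uncertain.

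Voltage-gated pore subunits of the Kcna, Kcnb, Kcnc and Kcnd families had 17 members, of which 15 were tested. In MPNST against neurofibroma 1 was called higher and 7 lower, and in MPNST against nerve 0 and 8. The shares of all genes beside which this and the other class counts stand are 25.3% higher and 16.8% lower against neurofibroma, and 27.6% higher and 18.4% lower against nerve. Kcna2, a subunit of axonal channels near the nodes, had a lowest, median and highest value of 5.24, 28.6 and 368 CPM in MPNST, 698, 819.6 and 898 CPM in neurofibroma and 552, 807 and 1035 CPM in nerve. The groups of MPNST and trigeminal libraries did not overlap, and MPNST library 1 held the highest value of its group. Kcna2 fell by 3.20 on the log2 scale in MPNST against neurofibroma (SE 0.79, edgeR adjusted p = 0.00706) and by 3.20 against nerve (SE 0.80, adjusted p = 0.00683).

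Kcna1, the other subunit of these axonal channels, stood at 1.06, 4.51 and 189 CPM in MPNST, 210.2, 238 and 291 CPM in neurofibroma and 110.2, 309 and 362 CPM in nerve. MPNST library 1 at 189 CPM was within the nerve range, and the next MPNST value was 23.4 CPM in library 3. The log2 change was -2.73 (SE 1.11, edgeR adjusted p = 0.0658) against neurofibroma and -2.88 (SE 1.14, adjusted p = 0.0562) against nerve, neither called. Without MPNST library 1 the log2 changes were -4.84 (adjusted p = 0.00196) and -4.99 (adjusted p = 0.00205). Library 1 also held the most Schwann cell markers of the 6 MPNST, at 1879 CPM against 85.6 to 944 CPM in the others, and the part of this in the Kcna1 level was not tested.

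Kcna6, a subunit of the same family whose gene lies next to Kcna1, kept more of its level in some MPNST. It stood at 134, 2.62, 65.7, 3.35, 101 and 13.7 CPM in MPNST libraries 1 to 6, at 112 to 208 CPM in neurofibroma (median 156) and at 91.0 to 136 CPM in nerve (median 103). MPNST libraries 1 and 5 were thus within the nerve range and libraries 2 and 4 far below it. The MPNST changes of -1.49 (SE 0.74) and -0.93 (SE 0.72) were not called (edgeR adjusted p = 0.122 against neurofibroma and 0.309 against nerve). Kcna6 rose in neurofibroma against nerve by 0.56 (SE 0.13, adjusted p = 0.0188), with overlapping groups. This call was lost without nerve library 4, at an adjusted p of 0.05001.

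Kcna3, the voltage-gated channel best known in T cells and macrophages, was low everywhere. Its values were 0.254, 1.60 and 4.85 CPM in MPNST, 0.205, 0.527 and 1.15 CPM in neurofibroma and 0.489, 0.694 and 2.62 CPM in nerve, with all groups overlapping. MPNST libraries 1 and 4 were highest, at 4.51 and 4.85 CPM. Kcna3 rose in MPNST against neurofibroma by 1.91 on the log2 scale (SE 0.60, edgeR adjusted p = 0.0227), and its change of 1.20 against nerve (SE 0.62, adjusted p = 0.129) was not called. The call was lost without MPNST library 1 or 4 or neurofibroma library 5, at log2 changes of 1.56 to 2.21 over all single omissions. The 6 macrophage markers summed to 92.0 to 2009 CPM in MPNST, 96.6 to 201 CPM in neurofibroma and 25.1 to 139 CPM in nerve, and the 5 T cell markers to 1.27 to 219 CPM in MPNST, 1.59 to 4.84 CPM in neurofibroma and 0.393 to 3.77 CPM in nerve. B and plasma cell markers summed to 733 CPM in MPNST library 1 and to at most 73.0 CPM in the other MPNST. The part of these immune cells in the Kcna3 call was not tested.

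Among the remaining pore subunits of these families Kcnb2, a delayed rectifier subunit of neurons, had the largest fall. It was at 0, 0.142 and 0.419 CPM in MPNST, 109.8, 152 and 157 CPM in neurofibroma and 96.3, 218 and 228 CPM in nerve. MPNST libraries were all far below the trigeminal ones. The log2 change was -9.17 against neurofibroma (SE 0.61, edgeR adjusted p = 2.03e-06) and -9.62 against nerve (SE 0.68, adjusted p = 3.5e-06). Kcnd1, an A-type subunit, stood at 0.634 to 9.93 CPM in MPNST, 127 to 197 CPM in neurofibroma and 96.6 to 208 CPM in nerve and fell by 4.54 (SE 0.35) and 4.67 (SE 0.37) in the MPNST comparisons.

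Silent modifier subunits (Kcnf, Kcng, Kcns and Kcnv) numbered 10, with 9 tested and 7 called lower in each MPNST comparison and none higher. Kcns3 stood at 0, 1.46 and 4.92 CPM in MPNST, 77.6, 91.7 and 99.2 CPM in neurofibroma and 67.3, 104 and 129 CPM in nerve, with log2 changes of -5.35 (SE 0.94, edgeR adjusted p = 0.00113) and -5.54 (SE 0.97, adjusted p = 0.000908). Kcnv1 was at 0 CPM in 3 of the 6 MPNST and at most 0.576 CPM, against 7.85 to 19.8 CPM in neurofibroma and 7.92 to 20.1 CPM in nerve. These MPNST values lie wholly below the trigeminal ranges. Kcnf1 had log2 changes of -3.03 (SE 0.50) and -3.13 (SE 0.53), both called.

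Kcng1 differed from the other silent subunits in that it was called higher in neurofibroma against nerve. It stood at 0, 0.0571 and 0.262 CPM in MPNST, 2.92, 3.52 and 4.76 CPM in neurofibroma and 0.720, 1.62 and 2.16 CPM in nerve, so that no group overlapped another. It was the 1 tested gene higher in every neurofibroma than in every nerve library. The rise in neurofibroma was 1.22 on the log2 scale (SE 0.25, edgeR adjusted p = 0.00889), and the changes in MPNST were -5.19 (SE 0.72) against neurofibroma and -3.99 (SE 0.72) against nerve. Kcng3 and Kcng4 were called lower in all 3 comparisons, with log2 changes of -1.32 (SE 0.34) and -0.48 (SE 0.11) in neurofibroma against nerve.

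The Kcnh family of EAG, ERG and ELK subunits had 8 members and 7 tested, of which 5 were called lower in MPNST against neurofibroma and 4 against nerve. Kcnh7, an ERG subunit, stood at 0.0846, 0.528 and 21.8 CPM in MPNST, 148, 179 and 196 CPM in neurofibroma and 145, 249 and 300.3 CPM in nerve. MPNST did not overlap the trigeminal libraries, neurofibroma and nerve overlapped, and the value of 21.8 CPM was that of MPNST library 6. Its log2 change was -5.48 (SE 1.17, edgeR adjusted p = 0.00343) against neurofibroma and -5.92 (SE 1.21, adjusted p = 0.00235) against nerve. Kcnh2, which encodes the cardiac ERG channel, was at 0.127, 6.72 and 88.1 CPM in MPNST, 56.8, 60.7 and 75.7 CPM in neurofibroma and 73.2, 86.6 and 101 CPM in nerve. MPNST library 5, at 88.1 CPM, was above every neurofibroma library and the other 5 MPNST were at most 14.9 CPM. Its MPNST changes of -1.64 (SE 0.86, adjusted p = 0.141) and -2.12 (SE 0.87, adjusted p = 0.0638) were not called, and without library 5 they were -3.20 (adjusted p = 0.00240) and -3.71 (adjusted p = 0.00152).

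Kcnq3, a subunit of M-current channels, was near 0 in 5 of the 6 MPNST and high in the remaining one. It was at 0 to 0.386 CPM in MPNST libraries 1 to 5 and 114 CPM in library 6, against 61.8 to 76.0 CPM in neurofibroma and 90.4 to 127 CPM in nerve. Library 6 exceeded every neurofibroma library. Kcnq3 was not called over all 6 MPNST, with a log2 change of -1.92 (SE 1.58, edgeR adjusted p = 0.344) against neurofibroma and -2.61 (SE 1.62, adjusted p = 0.204) against nerve. Without library 6 the changes were -8.59 and -9.26, both called. Of 5 coding Kcnq genes, 1 was called lower and none higher in each MPNST comparison, a share near that of all genes called lower (16.8% against neurofibroma and 18.4% against nerve).

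Auxiliary subunits (Kcnab, Kcne, Kcnip and Kcnmb) numbered 16, with 13 tested and 8 called lower in each MPNST comparison. Kcnab2, a beta subunit of Kcna channels, stood at 1.90, 10.7 and 41.1 CPM in MPNST, 512, 593 and 695 CPM in neurofibroma and 379, 949 and 1098 CPM in nerve. It fell by 5.29 (SE 0.55, edgeR adjusted p = 3.88e-05) and 5.84 (SE 0.62, adjusted p = 4e-05). Kcnip4, which binds Kcnd channels, was at 0, 0.129 and 1.10 CPM in MPNST, 87.9, 110.1 and 148 CPM in neurofibroma and 111, 124 and 157 CPM in nerve, with called log2 changes of -8.48 (SE 0.88) and -8.70 (SE 0.89). MPNST and trigeminal libraries did not overlap for either gene. Kcnip3 changed by -4.17 (SE 0.77) and -4.54 (SE 0.79). Kcne3 was the only auxiliary subunit called higher in MPNST against neurofibroma, at 0.423, 0.718 and 1.78 CPM in MPNST and 0.0499, 0.283 and 0.767 CPM in neurofibroma (log2 change 1.48, SE 0.53, adjusted p = 0.0418). The highest value was that of MPNST library 6, and without MPNST libraries 2, 3 and 6 and neurofibroma library 1 the change in Kcne3 was 0.97 and not called (adjusted p = 0.147). Kcne4 was not called, at medians of 1.22, 1.21 and 1.20 CPM in MPNST, neurofibroma and nerve.

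Kcnmb4, the neuronal beta subunit of the large-conductance calcium-activated channel, rose in neurofibroma against nerve by 0.73 (SE 0.16, edgeR adjusted p = 0.0142). It stood at 0.465, 6.24 and 20.9 CPM in MPNST, 17.9, 19.8 and 28.6 CPM in neurofibroma and 10.5, 12.6 and 18.4 CPM in nerve. Neurofibroma and nerve overlapped slightly. Its MPNST change of -1.48 (SE 0.58, adjusted p = 0.0592) against neurofibroma was not called.

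Inward rectifiers (Kcnj) numbered 15, with 11 tested in MPNST against neurofibroma and 12 against nerve. In these comparisons 1 and 2 were called higher and 5 were called lower in each. Kcnj3, a subunit of G-protein-gated channels in neurons and heart, had the smallest adjusted p of all tested channel genes. It was at 0.0846, 0.333 and 0.515 CPM in MPNST, 21.4, 26.7 and 30.1 CPM in neurofibroma and 32.7, 37.3 and 46.6 CPM in nerve, with no overlap between any 2 groups. Its log2 change was -6.18 against neurofibroma (SE 0.26, edgeR adjusted p = 1.52e-07), -6.74 in MPNST against nerve (SE 0.26, adjusted p = 6.74e-08) and -0.55 in neurofibroma against nerve (SE 0.12, adjusted p = 0.0118).

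Kcnj10, the inward rectifier of glia, was at 1.69, 27.3 and 44.9 CPM in MPNST, 102, 116 and 138 CPM in neurofibroma and 66.4, 83.4 and 217 CPM in nerve. MPNST libraries 1, 3 and 5, at 38.6, 38.6 and 44.9 CPM, also held the most Schwann cell markers of their group. These summed to 1879, 930 and 944 CPM there, against 85.6 to 170 CPM in libraries 2, 4 and 6. Satellite glia markers had another order, at 449, 537, 331, 152, 220 and 115 CPM in MPNST libraries 1 to 6. They were highest in library 2, where Kcnj10 was lowest. The part of either cell type in the Kcnj10 level was not tested. The gene fell by 2.11 in MPNST against neurofibroma (SE 0.44, edgeR adjusted p = 0.00313) and by 1.93 against nerve (SE 0.50, adjusted p = 0.00881). In neurofibroma against nerve its change was 0.18 (SE 0.26, adjusted p = 0.662). The nerve value of 217 CPM was that of library 6, and without nerve library 6 the change was 0.52 and called (adjusted p = 0.0182).

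Kcnj8, the pore subunit of the ATP-sensitive channel of pericytes and smooth muscle, was at 1.65, 3.20 and 5.90 CPM in MPNST, 2.29, 2.72 and 3.59 CPM in neurofibroma and 0.946, 2.01 and 2.95 CPM in nerve. It rose in MPNST against nerve by 1.19 (SE 0.36, edgeR adjusted p = 0.0185), and its change against neurofibroma was 0.62 (SE 0.30, adjusted p = 0.113). Abcc9, which encodes the partner subunit of the same channel and lies next to Kcnj8, stood at 7.06, 16.1 and 118 CPM in MPNST, 5.60, 7.72 and 11.7 CPM in neurofibroma and 3.98, 6.56 and 9.67 CPM in nerve. The value of 118 CPM was that of MPNST library 3. Abcc9 rose by 2.22 (SE 0.67, adjusted p = 0.0188) and 2.45 (SE 0.67, adjusted p = 0.0112), and by 0.98 and 1.17 without library 3, still called. The 8 pericyte and smooth muscle markers summed to 122 to 4992 CPM in MPNST (median 567). They summed to 246 to 663 CPM in neurofibroma (median 327) and 131 to 575 CPM in nerve (median 249). The highest MPNST sum was that of library 3, where Des alone held 4247 CPM and skeletal muscle markers summed to 46868 CPM. The part of pericyte, smooth muscle or skeletal muscle content was not tested.

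Kcnj2, the classical inward rectifier of muscle and heart, was at 5.53, 1.35, 87.4, 8.37, 5.33 and 15.8 CPM in MPNST libraries 1 to 6, 3.35 to 10.1 CPM in neurofibroma and 4.12 to 12.1 CPM in nerve. Library 3, the one with skeletal muscle markers, was far above the others. The rise of 2.26 against neurofibroma (SE 0.84, edgeR adjusted p = 0.0468) became 0.56 (adjusted p = 0.101) without MPNST libraries 2, 3 and 6 and neurofibroma library 1. Kcnj15 was at 0.262, 1.62 and 9.68 CPM in MPNST and 0, 0.0747 and 0.712 CPM in nerve and was called higher there (log2 change 5.10, SE 1.35, adjusted p = 0.00922), with its highest value in MPNST library 2. Without MPNST libraries 2, 3 and 6 and nerve library 6 the change in Kcnj15 was 3.47 and still called (adjusted p = 0.0141). In neurofibroma Kcnj15 was at 0 to 2.76 CPM, and its MPNST change of 2.63 against neurofibroma (SE 1.31, edgeR adjusted p = 0.124) was not called.

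Kcnk genes of the 2-pore-domain class numbered 14, with 11 tested. In MPNST against neurofibroma 1 was called higher and 4 lower, and against nerve 1 and 3. Kcnk6, a background channel known in mouse macrophages, was called higher in both. It stood at 19.3, 12.3, 9.27, 13.7, 21.5 and 1.05 CPM in MPNST libraries 1 to 6, at 1.02 to 2.61 CPM in neurofibroma (median 1.79) and at 0.769 to 2.85 CPM in nerve (median 1.04). MPNST libraries 1 to 5 were all above every trigeminal library, while library 6 was within their ranges. The log2 change was 3.24 against neurofibroma (SE 0.64, edgeR adjusted p = 0.00222) and 3.59 against nerve (SE 0.69, adjusted p = 0.00170). Without the libraries that held other tissues it was 3.29 against neurofibroma and 3.72 against nerve, both called. Macrophage markers, given with Kcna3, were highest in MPNST libraries 1, 4 and 5, and their part was not tested.

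Kcnk18, known in mouse as a background channel of trigeminal and other sensory neurons, was nearly absent from MPNST. It had 1 count in 1 MPNST library (0.0702 CPM) and 0 in the other 5, against a median of 12.5 and at most 14.5 CPM in neurofibroma and 4.85, 17.1 and 30.9 CPM in nerve. As a ratio of pooled CPM it was 0.000721 of the neurofibroma level (95% exact interval 1.83e-05 to 0.00403, counting error only). Kcnk2, a mechanosensitive channel, was at 1.01, 13.1 and 35.8 CPM in MPNST, 31.6, 36.1 and 44.1 CPM in neurofibroma and 22.8, 26.2 and 37.9 CPM in nerve. It was called lower in MPNST against neurofibroma (-1.17, SE 0.40, edgeR adjusted p = 0.0350) and higher in neurofibroma against nerve (0.41, SE 0.12, adjusted p = 0.0469). These 2 calls were lost on leaving out any of 9 and 10 of the 12 libraries.

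Kcnk1, a weakly conducting background channel gene, was at 0, 0.683 and 32.0 CPM in MPNST, 85.5, 95.9 and 111 CPM in neurofibroma and 84.2, 101 and 143 CPM in nerve. The value of 32.0 CPM was that of MPNST library 2, and no MPNST reached a trigeminal value. The change of -2.48 against neurofibroma (SE 1.44, edgeR adjusted p = 0.181) was not called, and without library 2 it was -6.65 and called. Kcnk9, an acid-sensitive background channel, stood at 759 CPM in MPNST library 6 and at 0 to 0.550 CPM in the other 5, against 3.03 to 4.67 CPM in neurofibroma and 3.18 to 64.6 CPM in nerve. Its change of 5.003 against neurofibroma (SE 2.11, adjusted p = 0.0743) was not called, and without MPNST libraries 2, 3 and 6 and neurofibroma library 1 it was -4.31 (adjusted p = 0.00363).

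Channels opened by calcium or sodium, with their relatives, numbered 8, all tested, with 1 called higher and 3 lower in each MPNST comparison. Kcnn4, the intermediate-conductance calcium-activated channel of blood cells, epithelia and proliferating cells, was the only gene called higher in all 3 comparisons. It stood at 54.3, 181, 11.6, 78.6, 79.0 and 1.62 CPM in MPNST libraries 1 to 6, at 9.77, 19.9 and 23.0 CPM in neurofibroma and at 6.15, 9.35 and 12.3 CPM in nerve. MPNST libraries 1, 2, 4 and 5 were above every neurofibroma library, library 3 was within their range and library 6 below it.

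Kcnn4 rose by 2.89 in MPNST against neurofibroma (SE 0.99, edgeR adjusted p = 0.0341), by 3.82 in MPNST against nerve (SE 1.03, adjusted p = 0.0103) and by 0.94 in neurofibroma against nerve (SE 0.23, adjusted p = 0.0200). The first of these calls was lost without MPNST library 2, where the log2 change was 1.30, or without any 1 neurofibroma library. Without MPNST libraries 2, 3 and 6 and neurofibroma library 1 it was 1.78 and called (adjusted p = 0.000124). The table's columns fall into 2 runs of 3 libraries a group, which no label explains; within them the MPNST change against neurofibroma was 3.75 (adjusted p = 0.0456) and 0.77 (adjusted p = 0.695), and with the run as a term it was 2.26 (adjusted p = 0.101). The call in neurofibroma against nerve was lost without neurofibroma library 4 (adjusted p = 0.0540). The 6 macrophage markers given above were higher in MPNST libraries 1, 4 and 5, at 1139, 1342 and 2009 CPM, than in libraries 2, 3 and 6, at 121, 251 and 92.0 CPM. Library 2, the highest for Kcnn4 at 181 CPM, held 240746 CPM of salivary gland markers. The part of macrophage or gland content was not tested.

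**Figure D3:**
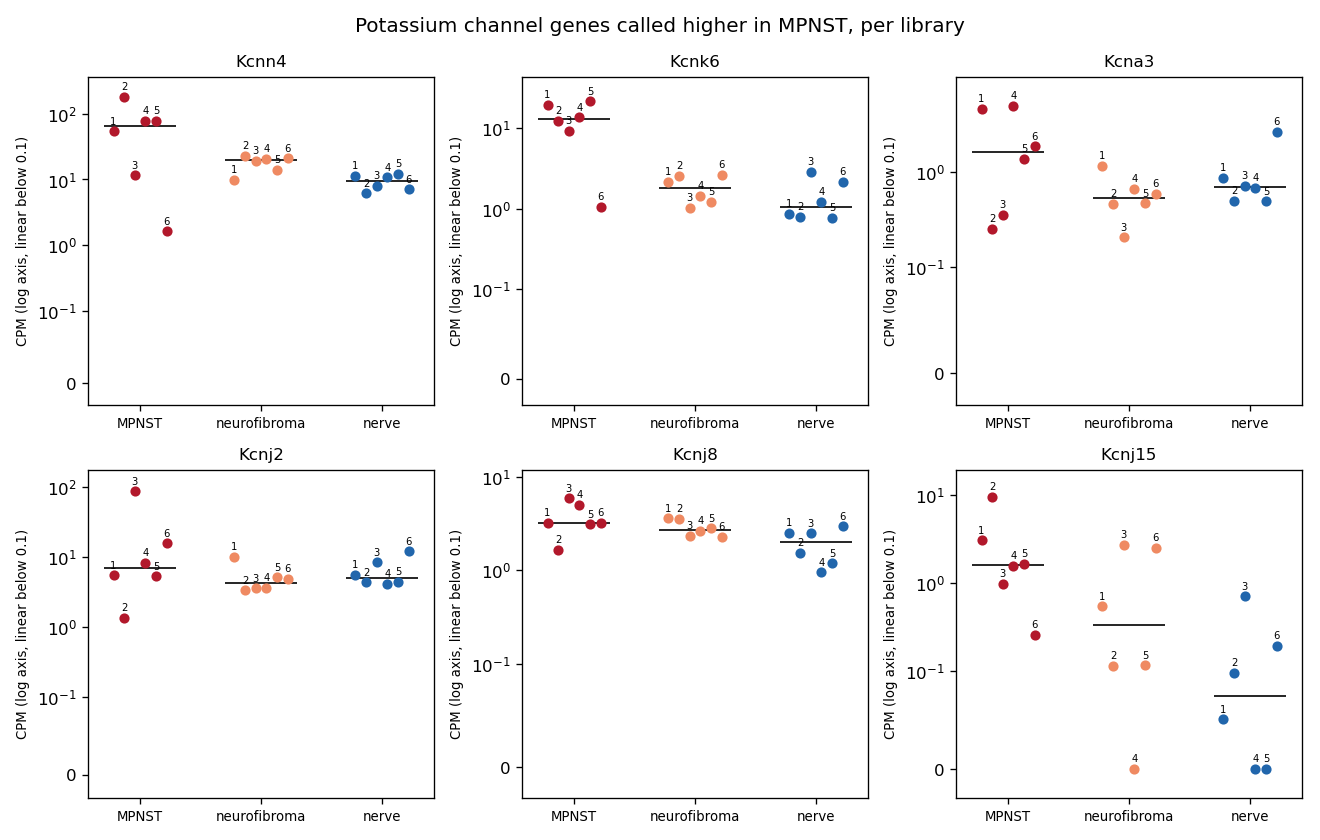
CPM per library (log axis, linear below 0.1 CPM) of 6 genes called higher in MPNST against neurofibroma, nerve or both; points are numbered libraries and lines are medians of 6. Kcnk6 is above every trigeminal library in MPNST 1 to 5, and the highest Kcnj2 and Kcnn4 values are in MPNST 3 (87.4 CPM) and MPNST 2 (181 CPM).

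Kcnma1, the pore of the large-conductance calcium-activated channel, was at 4.34, 104, 67.2, 2.23, 0.144 and 236 CPM in MPNST libraries 1 to 6, 31.3 to 42.4 CPM in neurofibroma and 51.1 to 85.0 CPM in nerve. Libraries 2, 3 and 6 were above every neurofibroma library and libraries 1, 4 and 5 far below. The change of 1.56 against neurofibroma (SE 1.18, edgeR adjusted p = 0.304) was not called, and it was -4.07 (adjusted p = 0.00171) without MPNST libraries 2, 3 and 6 and neurofibroma library 1. Kcnma1 fell in neurofibroma against nerve by 0.69 (SE 0.13, adjusted p = 0.00658), with every neurofibroma below every nerve library. Of the sodium-activated and related subunits, Kcnt1 stood at 0.720, 3.05 and 13.2 CPM in MPNST, 58.4, 78.7 and 127 CPM in neurofibroma and 90.6, 128 and 151 CPM in nerve, and fell by 3.90 (SE 0.73) and 4.41 (SE 0.73). Kcnu1, a Kcnma1 relative known from mouse sperm, fell by 3.01 (SE 0.76) and 2.78 (SE 0.76).

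MPNST libraries 2, 3 and 6 held channel genes that were far lower in the other MPNST. Of 72 channel genes with at least 1 CPM in an MPNST library, 34 had their highest MPNST value in library 6, and 11 of these had at least 5 CPM there and stood at least 10-fold above every other MPNST. With the same limits there were 2 such genes in library 2, 2 in library 3 and 0 in libraries 1, 4 and 5. They include Kcnk9, Kcnq3, Kcnh7, Kcnd3 and Kcnk10 (54.4 CPM, against 0 to 0.351 CPM in the other 5). Library 6 also held 5066 CPM of sensory neuron markers with sympathoadrenal and pancreatic acinar markers, but Scn10a and Pou4f1 at 0.105 CPM each. The part of these cells was not tested. Library 3 stood alone for Kcna7, a muscle-associated Kcna subunit (33.9 CPM, 0 in the other 5), and for Kcnj11, the pore of the ATP-sensitive channel of muscle and islets (75.1 CPM, at most 3.46 CPM in the others). Library 2 stood alone for Kcns1 (35.0 CPM, at most 0.816 CPM in the others) and Kcnk1, and held Lrrc26, a gland-associated partner of Kcnma1, at 77.7 CPM against at most 0.144 CPM in the others. Kcnk9, Kcnk10, Kcna7, Kcnj11, Kcns1 and Lrrc26 were named after their values were seen.

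**Figure D4:**
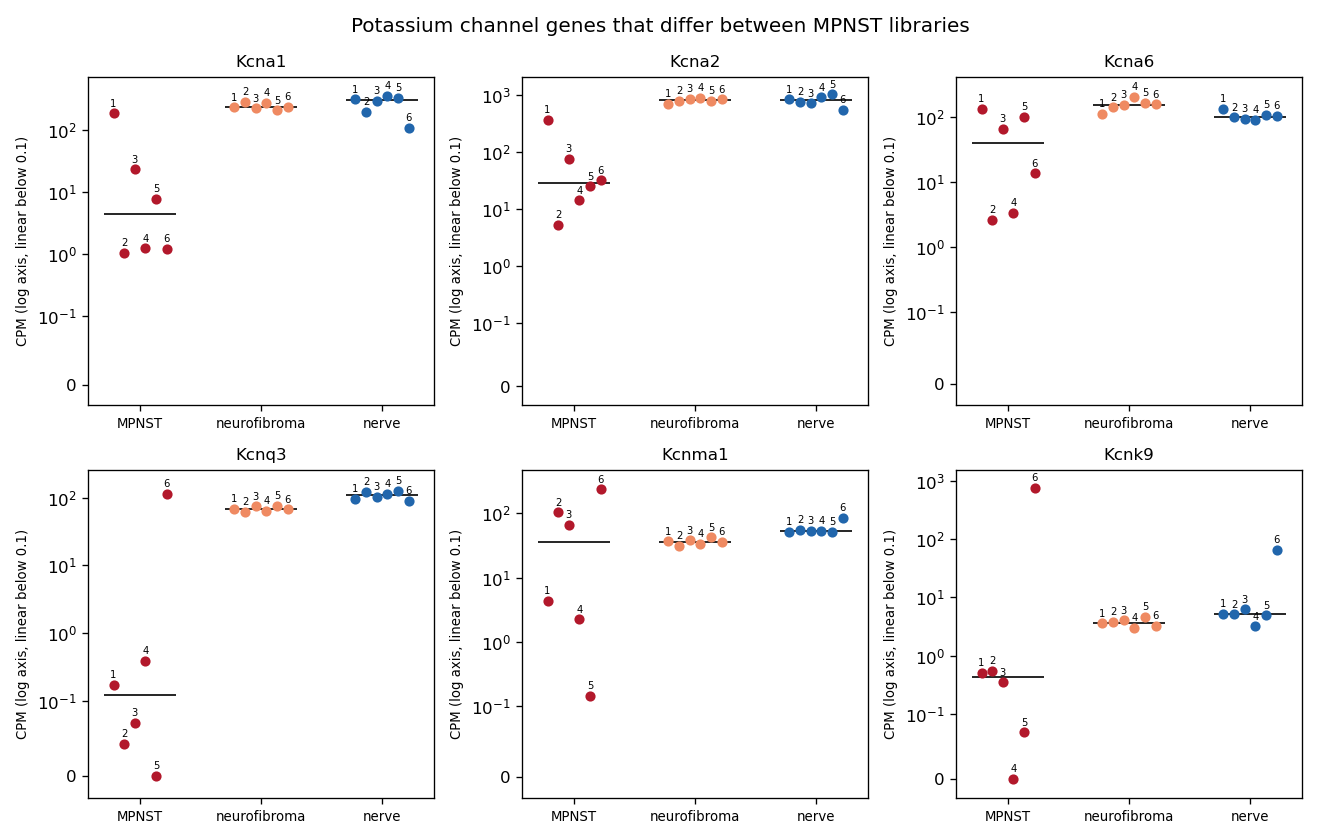
CPM per library (log axis, linear below 0.1 CPM) of 6 genes whose MPNST values spread widely; points are numbered libraries and lines are medians of 6. Kcna1 and Kcna2 are highest in MPNST 1, Kcnq3 and Kcnk9 in MPNST 6, and Kcnma1 splits into libraries above (2, 3 and 6) and below (1, 4 and 5) the neurofibroma range.

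Leaving out MPNST libraries 2, 3 and 6 and neurofibroma library 1 left 3 channel genes called higher in MPNST against neurofibroma (Kcna3, Kcnk6 and Kcnn4) and 62 lower, while 29.8% of all genes were called higher and 29.8% lower. Against nerve, without MPNST libraries 2, 3 and 6 and nerve library 6, 5 were called higher and 62 lower, with 32.0% and 30.9% of all genes called in these directions.

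The neurofibroma changes were small beside those in MPNST. The 13 genes called lower in neurofibroma against nerve had log2 changes of -1.32 to -0.47, and 5 were higher, at 0.41 to 1.22. Those lower included Kcnc1, Kcnc2, Kcnd3, Kcng3, Kcng4, Kcnh2, Kcnh5, Kcnj3, Kcnma1 and Kcnq3. Kcnq3 had the smallest adjusted p, with a fall of 0.67 (SE 0.10, edgeR adjusted p = 0.00274) and every neurofibroma (61.8 to 76.0 CPM) below every nerve library (90.4 to 127 CPM). Kcng4, Kcnj3, Kcnma1 and Kcnq3 were the 4 genes without overlap. Without neurofibroma library 1 and nerve library 6, 7 genes were called higher and 25 lower, with 10.7% and 10.1% of all genes called in these directions. Other settings left few or none, with 1 higher and 2 lower at an adjusted p below 0.01, and 0 and 0 with glmTreat, in a fit of all 18 samples and within each run of columns. In the fit of all 18 samples, 2 of all 17316 genes were called, and the share of all genes at 0.01 was not counted.

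**Figure D5:**
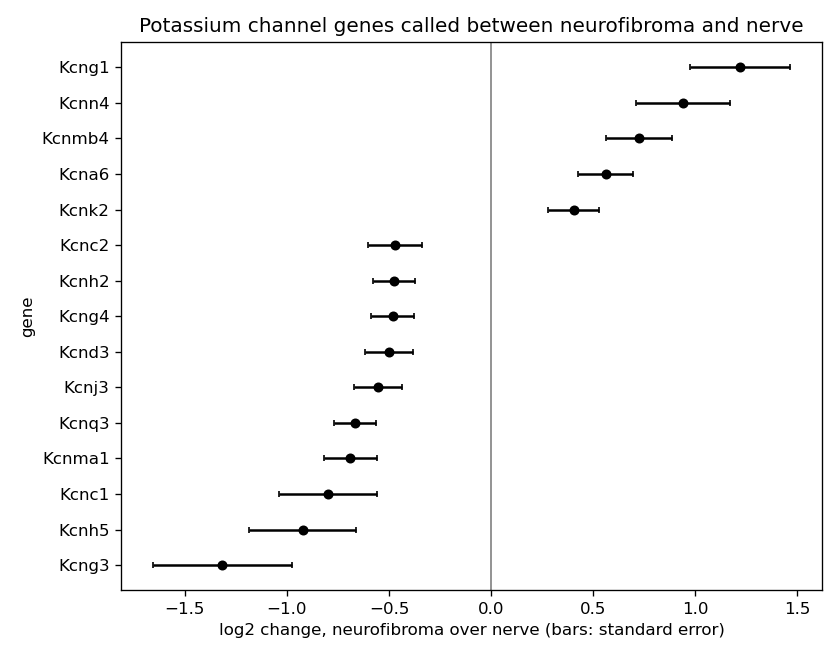
Log2 change of 15 of the 18 genes called in neurofibroma over nerve (x axis; points are edgeR estimates from 6 libraries a group, bars are 1 standard error). The 5 genes on the right were higher in neurofibroma, from 0.41 for Kcnk2 to 1.22 for Kcng1, and the 10 on the left lower, down to -1.32 for Kcng3.

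The non-coding transcript Kcnq1ot1, which runs antisense to Kcnq1 and is known for imprinting its neighbourhood, stayed high in MPNST. It was at 52.8, 112 and 159 CPM in MPNST, 57.9, 75.3 and 104 CPM in neurofibroma and 68.8, 90.9 and 136 CPM in nerve. It rose in MPNST against neurofibroma by 0.74 (SE 0.19, edgeR adjusted p = 0.00831) and was not called against nerve (0.47, SE 0.21, adjusted p = 0.0912). Without MPNST libraries 2, 3 and 6 and neurofibroma library 1 the change of Kcnq1ot1 against neurofibroma was 0.57 and not called (adjusted p = 0.0541). Kcnq1 itself was at 0.386 to 5.16 CPM in MPNST, and how reads of the overlapping pair were divided is uncertain, since the strand setting of the counting is not given.

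Of 25 genes for partners outside the naming rule, 22 were tested. Calls higher and lower numbered 2 and 11 in MPNST against neurofibroma, 2 and 12 in MPNST against nerve and 1 and 7 in neurofibroma against nerve. The shares of all genes called higher and lower in these comparisons were 25.3% and 16.8%, 27.6% and 18.4%, and 7.94% and 6.00%. Their median log2 changes were -2.22, -2.45 and -0.39. Lgi3, a secreted protein of the axonal Kcna complex in mouse, was at 0.0846, 1.84 and 4.63 CPM in MPNST, 115, 123 and 165 CPM in neurofibroma and 138, 159 and 208 CPM in nerve, with log2 changes of -5.95 (SE 0.71) and -6.31 (SE 0.73). Lgi2, of the same family, fell in all 3 comparisons, by 3.58 (SE 0.35), 4.26 (SE 0.38) and 0.67 (SE 0.12). The related pacemaker channel gene Hcn2 fell in all 3 as well, by 3.39 (SE 0.91), 4.13 (SE 0.94) and 0.73 (SE 0.13). All these calls are at edgeR adjusted p below 0.05.

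Lgi4, which Schwann cells secrete during myelination in mouse, rose in neurofibroma against nerve by 1.04 (SE 0.18, edgeR adjusted p = 0.00459), with 132 to 252 CPM in neurofibroma and 64.6 to 130.1 CPM in nerve and no overlap. In MPNST it ran from 6.51 to 331 CPM and was not called. Libraries 1, 3 and 5, the highest for Schwann cell markers, were at 331, 131 and 265 CPM. The part of Schwann cell content in these Lgi4 levels was not tested. The scaffold gene Dlg1 stood at 20.5, 82.8 and 93.7 CPM in MPNST, 35.5, 45.8 and 47.8 CPM in neurofibroma and 29.9, 36.9 and 80.1 CPM in nerve. It rose by 1.13 (SE 0.39, adjusted p = 0.0347) and 1.15 (SE 0.43, adjusted p = 0.0461), and these calls were lost on leaving out any of 8 and 10 of the 12 libraries.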

How the data were processed

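Values are gene-level estimated counts as deposited; Salmon 1.4.0, FastQC, DESeq2 and build GRCm39 are named, without their roles, per the submitters' processing notes. RNA was column-purified and poly(A)-selected into stranded libraries, per the labels' protocols. Salmon's annotation, settings and strand handling were not given in the sources used here. Estimation can move reads between overlapping or similar genes.

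Counts were rounded, and columns were tied to samples through their header names. CPM values were computed from library totals without further scaling, except where TMM is named. Each comparison was fitted on its 12 libraries over the whole table by a two-sided quasi-likelihood test after TMM scaling and filterByExpr (edgeR 4.0.16, R 4.3.3), with p-values adjusted by Benjamini-Hochberg over all genes tested. The standard error is the log2 change divided by the square root of F. The fits were checked on simulated counts with the same dispersion for every gene and library and no outlying libraries. That check does not cover the spread among the MPNST libraries. Alternatives were other normalizations and filters, DESeq2 1.42.0, limma 3.58.1 (voom), glmTreat, a fit of all 18 samples, a threshold of 0.01 and left-out libraries. All members, marker lists and tests were chosen with earlier results of these data known.

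The neurofibroma and nerve samples are labelled as belonging to another series as well, the MPNST are not, so a difference in preparation between them cannot be told apart from tumour type. Nothing says the samples of a group were separate animals, so p-values measure the spread between these samples. Intervals cover counting error only. Named genes were the 5 largest rises and falls per comparison whose groups did not overlap and whose higher group averaged 5 CPM or more, the most abundant member of each family, members called in opposite directions, the 5 highest by median CPM in MPNST, 15 genes known in nerve, glia, vessels, muscle or tumours, and up to 2 partners per direction. Other genes were named after their values were seen, and some genes are counted but not reported here by name. Sequences and transcript lengths came from reference annotations of an earlier build than the authors', used for names, neighbours, lengths and promoters only.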

Additional observations from a re-analysis of the deposited data

Results flagged for a closer look

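Within each group of 6, a library was marked where its gap to the nearest other library exceeded Dixon's 95% critical share of the group's range. This held for 27 of 117 groups of values, where chance marks about 1 in 20, and the values are not independent.

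In MPNST library 6 the summed channel level was 2422 CPM, Kcnq3 114 CPM, Hcn2 36.2 CPM, Kcnh7 21.8 CPM, Kcnt1 13.2 CPM, Kcnu1 3.09 CPM, Kcnip4 1.10 CPM and Kcnv1 0.576 CPM, each far above the other MPNST. In MPNST library 3 it was Abcc9 at 118 CPM, Kcnj12 at 15.2 CPM, Kcng4 at 2.46 CPM and Kcnk18 at 0.0702 CPM, which is a single count. In MPNST library 1 it was Kcna2 at 368 CPM, Kcna1 at 189 CPM and Kcne4 at 4.17 CPM. MPNST library 2 stood apart for Kcnk1 at 32.0 CPM and MPNST library 5 for Kcnh2 at 88.1 CPM.

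Among the neurofibromas, library 3 was high for Kcnh2 at 75.7 CPM and Lgi3 at 164.5 CPM, and library 5 was low for Dlg1 at 35.5 CPM. Among the nerves, library 6 was high for Kcnj10 at 217 CPM, Kcnma1 at 85.0 CPM, Dlg1 at 80.1 CPM, Kcnk2 at 37.9 CPM and Kcna3 at 2.62 CPM and low for Kcnd1 at 96.6 CPM. Nerve library 2 was high for Kcnf1 at 21.2 CPM.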

How the results depend on the processing

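The higher and lower counts below are of channel genes called. In MPNST against neurofibroma 6 were higher with edgeR as reported and 2 with no filter, 1 with glmTreat, 2 at an adjusted p below 0.01 and 3 without the libraries that held other tissues. The share of all genes called higher, 25.3% as reported, was 11.3% with no filter and 7.52% with glmTreat. The 41 lower became 63 with limma-voom and 62 without those libraries, while the share of all genes called lower, 16.8% as reported, was 30.5% and 29.8%. In MPNST against nerve the 4 higher became 2 at 0.01, and the 39 lower became 64 with limma-voom and 62 without those libraries, beside 32.0% and 30.9% of all genes. In neurofibroma against nerve the 5 higher and 13 lower became 0 and 0 in the fit of all 18 samples, 0 and 0 with glmTreat and 1 and 2 at 0.01. Those fits called few genes at all, 2 of 17316 in the fit of all 18 samples and 13 of 16464 with glmTreat. The 13 lower became 8 with no filter, 20 with DESeq2, 24 with limma-voom and 25 without neurofibroma library 1 and nerve library 6, beside 1.62%, 10.1%, 11.6% and 10.1% of all genes lower. Leaving out 1 library at a time gave 3 to 6 higher and 37 to 53 lower, 4 to 6 and 38 to 54, and 3 to 6 and 7 to 24 in the 3 comparisons. Beside these, 20.6% to 30.4% of all genes were called higher and 14.2% to 23.9% lower in MPNST against neurofibroma. The shares were 22.7% to 31.6% and 15.9% to 25.1% in MPNST against nerve. In neurofibroma against nerve they were 3.7% to 11.8% and 3.2% to 11.2%. Shares of all genes at an adjusted p below 0.01 were not counted. With the libraries split by 2 runs of columns, which the labels leave unexplained and which were chosen after seeing the data, the first run gave 2 higher in each MPNST comparison, and the second 0 higher and 20 lower in each. In the first run 11.6% of all genes were called higher against neurofibroma and 13.3% against nerve, and in the second 3.11% and 2.16%, with 5.75% and 4.81% lower. Neurofibroma against nerve gave 0 and 0 in both runs, with 3 libraries a group, where 0 and 5 of all genes were called. The run as a term in the fit left 3 higher in MPNST against neurofibroma, beside 22.9% of all genes called higher. The median over all genes tested in that comparison, 0.22, was 0.17 with RLE and 0.28 with upper quartile scaling.

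Some directions turned. The log2 change of Kcnma1 in MPNST, positive in the fits reported, was -3.34 against neurofibroma and -3.91 against nerve with limma-voom, -4.07 and -4.65 without the libraries that held other tissues, and -0.79 (not called) against neurofibroma without MPNST libraries 2 and 6. In 1 run of columns Kcna3 was at -0.0743 and Kcnmb4 at 0.0181 in MPNST against nerve, and Kcnj16 at 0.44 in neurofibroma against nerve. The cause was not tested. No paired analysis was possible because the sample numbers follow the order of accession and pair nothing.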
